A study of Mus musculus with 4 samples.

Results

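The 39 genes described here encode enzymes, and a sulfate transporter, that build and sulfate glycosaminoglycans, the long sugar chains of cartilage and of most cell surfaces. They were taken by gene name from the 47643 genes of the deposited table and grouped by role into 5 genes of sulfate and sugar supply, 6 of the linker, 12 of chondroitin, 14 of heparan and 2 of hyaluronan synthesis. All 39 were found, and all passed a minimum of 10 reads in at least 2 libraries, which 17173 genes of the table passed.

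RNA was sequenced from sorted cells of mouse periosteum, which lines the outer surface of the femur, in 4 libraries of 2 groups. Every mouse carried 1 allele of Sox9CreErt2, a tamoxifen-activated Cre recombinase knocked into the Sox9 locus, and 1 allele of a TdTomato reporter in the Rosa26 locus that Cre switches on. Every mouse also received tamoxifen, in 3 intraperitoneal injections of 100 µL at 20 mg/mL spaced by 48 h, and intact femora were collected 2 weeks after that course. Cells released by liberase digestion of the diaphysis were sorted into TdTomato-positive and TdTomato-negative cells, about 10000 of each over 2 collections from 18 femora of 9 mice. Each group has 2 libraries. The positive cells are those in which the Sox9 locus was active when tamoxifen was given, together with cells that descend from them, and the negative cells are all other cells released from the same bones. The libraries pool mice, so their spread is not that between animals. The sources used here give no age or sex of the mice.

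Glycosaminoglycan chains are made in the Golgi from sugar nucleotides. Xylose is first placed on a serine of a core protein and extended to a short linker, on which either chondroitin or heparan sulfate is polymerised. Sulfotransferases then add sulfate from an activated donor, PAPS, which is itself made from sulfate taken up by the cell. Hyaluronan differs from the others: it is spun out at the plasma membrane by a single enzyme, without a core protein and without sulfate. Cartilage is rich in chondroitin sulfate, carried mostly by aggrecan, and mutations in several of these enzymes cause skeletal dysplasias.

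Depth, as implied by the values, was 32.0 and 41.6 M reads for TdTomato-positive libraries against 17.0 and 74.0 M for TdTomato-negative libraries, and each library is named here by its group and depth. Values are given in the order shallower positive, deeper positive, shallower negative, deeper negative. Levels are reads per kilobase of exon, scaled to the depth of the library and written exon RPKM, so that they can be compared between genes. RPM stands for reads scaled to depth without regard to length. Of the 39 genes, 30 have values that could be assigned to a library in both groups. For the other 9, Ugdh, Ugp2, Csgalnact2, Chpf, Chpf2, Chst12, Chst15, Hs6st1 and Has2, both assignments were kept and ranges are given that cover both. The log2 fold printed for each gene, unless another scale is named, is that of the authors' deposited table: the difference of the mean logs of positive and negative libraries after an offset of 0.1 on RPKM by genomic span. The p-values are those of the same table, not adjusted unless called FDR.

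Sox9 itself, the transcription factor whose locus drives the label, had levels of 21.9 and 6.03 exon RPKM in TdTomato-positive cells, against 4.44 and 0.0327 in TdTomato-negative cells. The lowest positive value was above the highest negative one, and the authors' deposited table gives a log2 fold of 3.70, a p of 0.0104 and an FDR of 1.00. Cells of other types were read in both groups. Summed over 10 genes, chondrocyte markers were at 3127 to 5372 RPM in the positive libraries and at 157 and 4.85 in the shallower and deeper negative ones. Matn1 and Snorc had 0 reads in both negative libraries, as had Acan and Matn3 in the deeper one. Matn1 had 0 reads in the deeper positive library as well. The 8 osteoblast markers summed to 25766 and 4181 RPM in the shallower and deeper positive libraries, an order that turned to 3891 and 32663 with the other assignment of unresolved genes, and to 3533 and 51.1 in the negative ones. Neutrophil markers, 10 genes, summed to 19214 and 19813 in the positive libraries and to 25843 and 65529 in the negative ones, and the 9 leukocyte markers to 2078 and 1304 against 2778 and 6553. The 6 endothelial markers ran from 43.4 to 218 RPM and the 5 muscle markers from 6.78 to 1031. The deeper negative library was lowest for both, but with the other assignment it was highest, at 263 and 2627 RPM. Unless the other assignment is named, these sums use, for unresolved genes, the assignment whose libraries differ less. The other assignment cannot hold for all unresolved genes together, as it would put 213% of the depth of the deeper negative library in genes. The deeper negative library stood apart on them, with the lowest level of chondrocyte and osteoblast markers and the highest level of leukocyte and neutrophil markers of the 4 under either assignment. In bulk RNA, fewer cells of a type and less RNA per cell cannot be told apart, and the part of cell makeup in the results below was not tested.

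**Figure D1:**
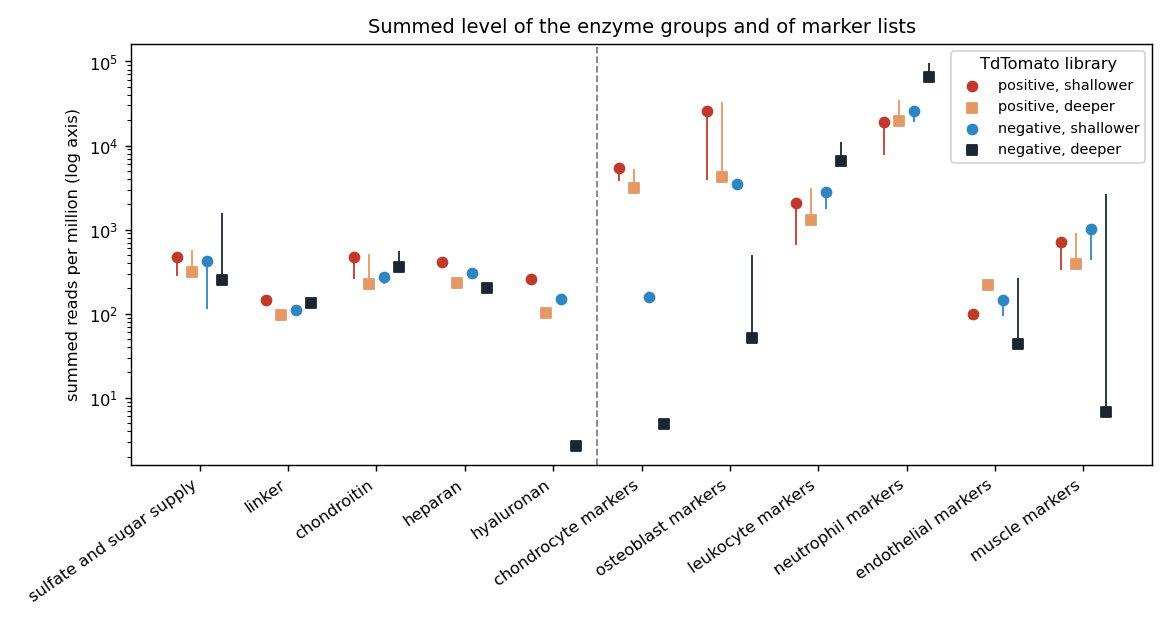
Summed level in RPM (log axis) of the 5 enzyme groups, left of the dashed line, and of 6 lists of cell type markers, in the 4 libraries. Points use the assignment whose libraries differ less, and lines reach to the other assignment. The hyaluronan group, at 2.70 RPM in the deeper negative library and at 102 to 261 in the other libraries, is the enzyme group with the widest range.

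No enzyme passed the adjusted test between positive and negative cells, and the highest fold, that of Has1, depended on a single library. By the authors' deposited FDR, 0 of the 39 passed at 0.05, where 3 of 17173 genes (0.0175%) passed upward and 0 (0.0%) downward. At an unadjusted p below 0.05 there was 1 gene, the hyaluronan synthase Has1, higher in positive cells (background 1.58% upward), and 0 genes lower (background 0.606%). The deposited log2 fold was above 0 in 22 enzymes and below 0 in 17, or 56.4% above against 51.0% of all genes tested. The median over the 39 was 0.11, beside 0.02 over all genes tested, and the range was -1.70 (Chst15) to 3.39 (Has1). The fold was above 1 in 5 enzymes (background 13.6%) and below -1 in 2 (background 12.2%). By role the medians were 0.33 for supply, 0.10 for the linker, 0.04 for chondroitin, 0.20 for heparan and 2.21 for the 2 hyaluronan synthases.

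The deposited table also holds a ratio of arithmetic group means, on which 13 enzymes were higher and 26 lower, with a median log2 ratio of -0.21 beside -0.26 over all genes tested. The sign differed between the mean log difference and this ratio for 9 enzymes, Papss1, Ugdh, Csgalnact1, Chst11, Dse, Ust, Ext1, Hs6st2 and Sulf1, all of them higher by the first and lower by the second. On the scale inferred here each library enters that ratio divided by its depth, which gives most weight to the shallower negative library within its group.

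Regardless of size, 8 enzymes (20.5%) were higher in each positive library than in either negative library, where 15.3% of all genes tested were. They were the linker enzymes B4galt7, B3galt6 and B3gat3, the chondroitin enzymes Chsy3 and Chst11, and the heparan enzymes Ext2, Extl1 and Hs6st2. The opposite order held for 7 (17.9%, background 12.5%), namely Slc26a2, Xylt1, Fam20b, Chst15, Ndst2, Hs6st1 and Hs3st1. Both counts are near the share in all genes. With unresolved genes set to the assignment whose libraries differ less, the deeper negative library was the lowest of the 4 for 16 enzymes (41.0%, background 24.8%), and the shallower positive library was the highest for 20 (51.3%, background 36.1%).

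**Figure D2:**
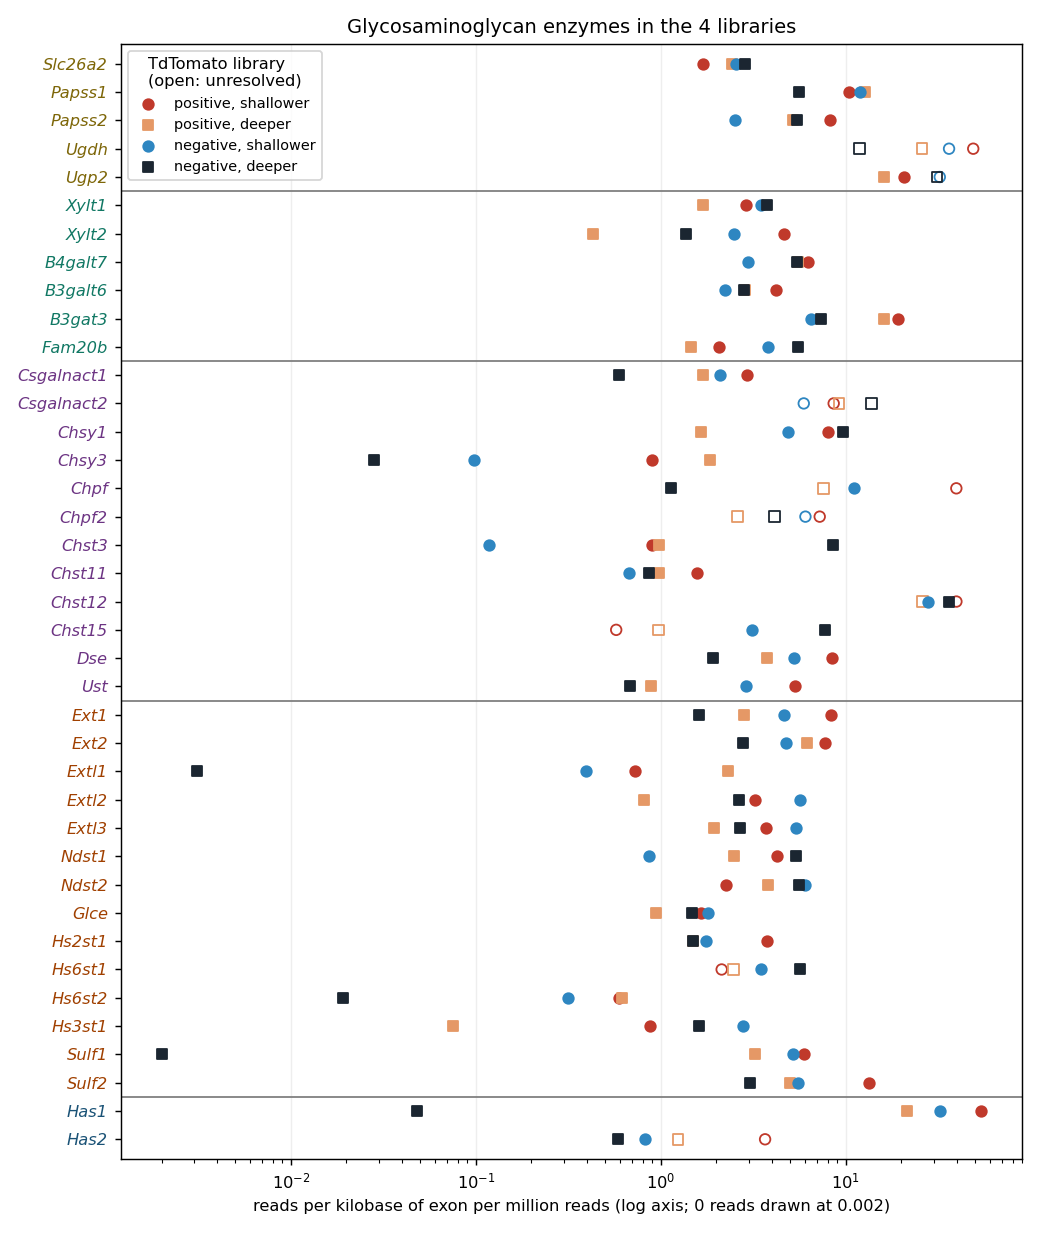
Level of each of the 39 enzymes in the 4 libraries, in exon RPKM (log axis), with rows grouped by role. Filled points could be assigned to a library and open points could not. The deeper negative library lies far to the left of the other libraries for Has1, Sulf1, Extl1 and Hs6st2. The 4 points are also widely spread for other enzymes, among them Chpf, Chsy3, Chst3, Xylt2 and Hs3st1. They lie close together for enzymes such as Slc26a2, B3galt6 and Glce.

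Promoter sequence is shown for 6 enzymes described below: Has1, which had the smallest p, B3gat3, B4galt7, Ext2 and Chst11, whose positive libraries both lay higher, and Ndst2, whose negative libraries both lay higher. Each is the window from 250 to 51 bases before the most upstream RefSeq start (GRCm38.p6), printed 5′ to 3′ on the strand of the gene. None of these windows overlaps an annotated exon, and that of Ndst2 lies upstream of the start given in the deposited table. Capitals mark matches, on either strand, to GGGCGG (the GC box, read as CCGCCC on the other strand), CCAAT (read as ATTGG) and TGACGTCA (the cyclic AMP response element, its own reverse complement). The windows of B4galt7 and Ext2 hold 0 matches to any of these.
Has1, chr17:17855239-17855438, minus strand: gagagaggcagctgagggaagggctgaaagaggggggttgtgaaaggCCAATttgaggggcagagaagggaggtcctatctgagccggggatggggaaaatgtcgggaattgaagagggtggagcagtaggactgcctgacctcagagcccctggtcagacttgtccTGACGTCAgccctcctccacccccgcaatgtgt
B3gat3, chr19:8920143-8920342, plus strand: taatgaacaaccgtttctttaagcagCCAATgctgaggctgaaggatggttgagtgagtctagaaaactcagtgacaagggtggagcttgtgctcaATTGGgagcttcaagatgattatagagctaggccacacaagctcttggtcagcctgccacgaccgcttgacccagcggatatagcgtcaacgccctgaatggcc
B4galt7, chr13:55599646-55599845, plus strand: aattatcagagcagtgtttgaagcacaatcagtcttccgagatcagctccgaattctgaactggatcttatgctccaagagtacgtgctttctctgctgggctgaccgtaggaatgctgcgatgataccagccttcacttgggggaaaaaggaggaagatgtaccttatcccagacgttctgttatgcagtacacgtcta
Ext2, chr2:93822619-93822818, minus strand: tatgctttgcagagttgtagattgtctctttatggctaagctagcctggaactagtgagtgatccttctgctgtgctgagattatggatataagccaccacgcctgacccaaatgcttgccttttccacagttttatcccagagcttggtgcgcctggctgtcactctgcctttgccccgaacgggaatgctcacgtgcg
Chst11, chr10:82985247-82985446, plus strand: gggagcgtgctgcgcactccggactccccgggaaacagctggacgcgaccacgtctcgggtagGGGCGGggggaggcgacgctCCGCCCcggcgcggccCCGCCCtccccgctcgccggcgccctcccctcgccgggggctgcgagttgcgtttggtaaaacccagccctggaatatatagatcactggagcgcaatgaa
Ndst2, chr14:20734613-20734812, minus strand: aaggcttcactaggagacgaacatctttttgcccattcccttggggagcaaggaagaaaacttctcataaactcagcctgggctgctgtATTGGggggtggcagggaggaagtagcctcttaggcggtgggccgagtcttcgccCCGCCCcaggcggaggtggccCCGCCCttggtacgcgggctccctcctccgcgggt

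Windows could be matched for 30 of the 39 enzymes. The GC box was in 15 of them (50%), against 24.6% of 27025 RefSeq windows of the same length, and CCAAT was in 12 (40.0%) against 28.9%. TGACGTCA was in 2 (6.67%), Has1 and Chpf, against 0.847% of all windows. Of 2 letter strings that SOX proteins are known to bind, ACAATG was in the window of Xylt2 alone (9.12% of all windows) and ACAAAG in that of Chst3 alone (13.6%). The strings CCAAT and TGACGTCA were added to the search after the windows had been seen, so their shares cannot be judged against those of all windows. A match is a description of these letters only, and the windows of genes with several starts cover only the most upstream.

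No gene of sulfate uptake, donor synthesis or sugar supply passed the test between the groups. Of these 5 genes, 3 lay above 0 and 2 below, and none had a deposited fold beyond 1 in either direction. Their p-values in the authors' deposited table ran from 0.581 to 0.817. Slc26a2 (chromosome 18, 61192919 to 61211612, mm10), the main sulfate transporter of cartilage, was at 1.70 and 2.43 exon RPKM in positive libraries and at 2.54 and 2.86 in negative ones. The groups did not overlap, with negative cells higher, but the log2 fold was small at -0.42. Papss1 and Papss2 encode the paired enzymes that make the sulfate donor. Papss1 was read at 10.4, 12.8, 12.0 and 5.60 exon RPKM and had a log2 fold of 0.33. It was even in 3 libraries and lower in the deeper negative one, without which the fold was -0.05. Papss2, the form whose loss shortens the skeleton, was read at 8.27, 5.17, 2.53 and 5.47 exon RPKM, with a log2 fold of 0.59. The shallower positive library was highest and the shallower negative lowest, while the deeper libraries of the groups were alike.

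Ugdh, which oxidises UDP-glucose to UDP-glucuronic acid, the acidic sugar of all these chains, was among the most abundant. Its levels lay between 19.8 and 63.9 exon RPKM in positive libraries and between 2.47 and 159 in negative ones, over both assignments. The log2 fold was 0.72, and the groups overlapped under every assignment. Ugp2, which makes UDP-glucose, was at 20.7 and 16.2 exon RPKM in positive libraries and between 5.90 and 146 in negative ones, with a log2 fold of -0.78. Whether the groups of Ugp2 overlap depends on the assignment of its negative values.

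The linker enzymes split into 3 that were higher and 3 that were lower in positive cells, with p-values from 0.381 to 0.881 in the authors' deposited table. B3gat3 (chromosome 19, 8920374 to 8927234), the glucuronosyltransferase that completes the linker and whose promoter window is printed above, was at 19.1 and 16.2 exon RPKM in positive libraries and at 6.51 and 7.38 in negative ones. The libraries of each group lay close together and the groups were well apart. The deposited log2 fold was 1.27. On log2(RPM + 1) the difference was 1.30 ± 0.46 (SE), with an unadjusted limma p of 0.0395 and an adjusted p of 0.653, and it stayed between 1.18 and 1.41 when any single library was left out. The unadjusted limma p was 0.0656 over the genes that could be assigned to libraries alone, and 0.0792 to 0.146 with a library left out. B4galt7, which adds the galactose next to xylose, was at 6.24, 5.49, 2.97 and 5.47 exon RPKM, with a log2 fold of 0.45. B3galt6, which adds the galactose after it, was at 4.23, 2.87, 2.22 and 2.83, with a log2 fold of 0.42. In both genes the deeper libraries of the 2 groups were nearly equal, so that the groups are separate by a narrow margin. For B4galt7 the assignment of the negative values rests on 1 whole read count.

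Fam20b, the kinase that phosphorylates the xylose of the linker, went the other way. It was at 2.06 and 1.46 exon RPKM in positive libraries and at 3.79 and 5.49 in negative ones. The groups did not overlap. The assignment of its positive values rests on 1 whole read count. Its exons overlap those of Gm19918 on the other strand, so the same limit on strand holds as for Chst15 below. The deposited log2 fold was -1.24, and the limma difference was -1.34 ± 0.50 on RPM + 1 (limma, unadjusted p of 0.0475 and adjusted p of 0.653), or -1.60 to -1.08 with a library left out. Its unadjusted limma p was 0.0701 over the assigned genes alone, and 0.0659 to 0.186 with a library left out. Xylt1 and Xylt2 place the first xylose on the core protein. Xylt1, the form tied to cartilage maturation, was at 2.89, 1.70, 3.49 and 3.75 exon RPKM with a log2 fold of -0.37, and each negative library lay above either positive one. Xylt2 was at 4.65, 0.429, 2.50 and 1.38 with a log2 fold of -0.21. Its positive libraries held both the highest and the lowest level, and the difference on RPM + 1 was -1.64 without the shallower positive library and 1.21 without the deeper one.

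Among the 12 chondroitin enzymes 6 folds were above 0 and 6 below, and the p-values in the authors' deposited table ran from 0.134 for Chpf and 0.236 for Chst15 to 0.985 for Chst12. Chpf, the chondroitin polymerizing factor that works with the chondroitin synthases, had the highest fold of them. Its levels lay between 5.82 and 51.7 exon RPKM in positive libraries, which could not be assigned, and were 11.1 and 1.13 in the negative ones. The log2 fold was 2.19, and on the deposited scale it was 0.65 without the deeper negative library. Chsy3 (chromosome 18, 59175401 to 59410446), a chondroitin synthase, was at 0.901 and 1.85 exon RPKM in positive libraries and at 0.0978 and 0.0280 in negative ones, from 208, 555, 12 and 15 reads. It was low in every library and the groups were far apart relative to their spread. Its deposited log2 fold was only 0.43, while the limma difference on RPM + 1 was 2.86 ± 0.57 (limma, unadjusted p of 0.00474 and adjusted p of 0.653), and 2.39 to 3.32 with any library left out. Over the assigned genes alone its unadjusted limma p on that scale was 0.00584. On log2(span RPKM + 1), the scale planned for limma, the difference of Chsy3 was 0.06, with an unadjusted limma p of 0.516. Chsy1, the more abundant synthase in 3 of the 4 libraries, was at 8.05, 1.66, 4.85 and 9.64 exon RPKM with a log2 fold of -0.65, and here the positive libraries differed more from each other than the groups did.

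Chst15 (chromosome 7, 132235780 to 132317228), which adds a further sulfate to 4-sulfated chondroitin and so makes the disulfated form known as chondroitin sulfate E, was the lowest of the 39 by fold. It lay between 0.468 and 1.11 exon RPKM in positive libraries over both assignments and at 3.11 and 7.72 in negative ones. Every positive value was below every negative one. The assignment of its negative values rests on 1 whole read count. Its exons overlap those of Gm10584 on the other strand, whose reads cannot be told apart if strand was not used in counting. The deposited log2 fold was -1.70. Under the assignment whose libraries differ less, the limma difference on RPM + 1 was -2.49 ± 0.65 (limma, unadjusted p of 0.0135 and adjusted p of 0.653). With a library left out the difference on RPM + 1 was -3.16 to -1.85 over both assignments. On log2(span RPKM + 1), the scale planned for limma, the difference was -0.43, with an unadjusted limma p of 0.0870. Blood cell markers were highest in the deeper negative library, where Chst15 was highest too, and whether the 2 are related was not tested. Chst3, the main chondroitin 6-sulfotransferase, was at 0.901 and 0.977 exon RPKM in positive libraries and at 0.118 and 8.56 in negative ones, with a log2 fold of -0.77. The negative libraries held its lowest and highest level, and the difference on RPM + 1 was 2.01 without the deeper and -3.00 without the shallower of them. The assignment of these negative values rests on 1 whole read count. Chst11, a chondroitin 4-sulfotransferase, whose window is printed above, was at 1.58, 0.979, 0.671 and 0.865 exon RPKM with a log2 fold of 0.11, the groups being separate but close.

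Chst12, a further 4-sulfotransferase, was far above Chst11 in every library and had 1 of the highest levels of all 39. It was at 19.7 to 52.0 exon RPKM in positive libraries and 27.9 and 36.2 in negative ones, with a log2 fold of -0.03. The groups overlapped under either assignment. Dse, the epimerase that turns chondroitin into dermatan, was at 8.43, 3.77, 5.28 and 1.92 with a log2 fold of 0.59, and Ust, which sulfates the uronic acid, was at 5.33, 0.889, 2.90 and 0.684 with a log2 fold of 0.14. In both genes the shallower library of each group was the higher one. The chain-starting enzymes had deposited folds near 0, with 0.11 for Csgalnact1 and -0.07 for Csgalnact2. Csgalnact1 spans 378 kb and was at 2.93, 1.70, 2.11 and 0.592 exon RPKM. Its difference on RPM + 1 was 0.86 ± 0.71, and 0.08 without the deeper negative library. The log2 fold of Chpf2, a further chondroitin synthase family member, was -0.24.

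Of the 14 heparan enzymes 8 folds were above 0 and 6 below, with p-values from 0.373 for Extl1 to 0.939 for Hs6st2 in the authors' deposited table. The copolymerase that builds the chain is a complex of Ext1 and Ext2. Ext2 (chromosome 2, 93661028 to 93822568) was at 7.76 and 6.22 exon RPKM in positive libraries and at 4.76 and 2.80 in negative ones, with a log2 fold of 0.59 and no overlap. Ext1 was at 8.32, 2.82, 4.63 and 1.60 with a log2 fold of 0.38, and its groups overlapped. Extl1, a related glycosyltransferase, had the highest heparan fold at 1.27. It was at 0.730 and 2.32 exon RPKM in positive libraries, from 101 and 419 reads, and at 0.394 and 0.00312 in negative ones, from 29 reads and 1 read. The groups did not overlap. The shallower negative library was 126-fold above the deeper one, a ratio that rests on 1 read in the latter. Extl2 was at 3.23, 0.816, 5.66 and 2.65 with a log2 fold of -0.99, and the groups overlapped. Extl3, which starts the heparan chain, had a log2 fold of -0.44.

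The enzymes that modify the heparan backbone did not move in 1 direction. Ndst1 and Ndst2 replace acetyl groups with sulfate, the step on which later sulfation depends. Ndst2, whose window is printed above, was at 2.27 and 3.80 exon RPKM in positive libraries and at 6.05 and 5.59 in negative ones, with a log2 fold of -0.99 and no overlap. Ndst1 was at 4.26, 2.48, 0.861 and 5.38, with a log2 fold of 0.42, and its negative libraries were the lowest and the highest of the 4. Glce, the epimerase, had a log2 fold of -0.26 and Hs2st1, the 2-O-sulfotransferase, one of 0.29.

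The 6-O-sulfotransferases differed in order. Hs6st1 lay between 1.74 and 2.99 exon RPKM in positive libraries and at 3.50 and 5.66 in negative ones, so that negative cells were higher under either assignment (deposited log2 fold -0.83). Hs6st2 was at 0.593 and 0.616 exon RPKM in positive libraries, from 148 and 200 reads, and at 0.317 and 0.0190 in negative ones, from 42 and 11 reads. Positive cells were higher, by a deposited log2 fold of 0.11 and by 1.52 ± 0.69 on RPM + 1. Hs3st1, the 3-O-sulfotransferase that makes the antithrombin-binding site, was at 0.870 and 0.0755 exon RPKM in positive libraries and at 2.80 and 1.61 in negative ones. These levels came from 62, 7, 106 and 265 reads. The groups did not overlap and negative cells were higher, with a deposited log2 fold of -0.37 and a difference of -1.64 ± 0.66 on RPM + 1.

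Sulf1 and Sulf2 are secreted endosulfatases that remove 6-O-sulfate from finished heparan chains. Sulf1 (chromosome 1, 12692277 to 12861192) was at 5.99 and 3.22 exon RPKM in positive libraries and at 5.16 in the shallower negative one, and had 0 reads in the deeper negative library. The shallower negative library, with 990 reads, was at least 1439-fold higher than the deeper one at a floor of 3 reads per library, a limit that covers counting error only. The log2 fold was 0.87, and it was -0.16 without the deeper negative library. Sulf2 was at 13.3, 4.99, 5.53 and 3.02 exon RPKM with a log2 fold of 0.77, the shallower positive library standing above the other libraries.

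The hyaluronan synthases Has1 and Has2 had folds above 1, and for Has1 the fold depended on 1 library. Has1 (chromosome 17, 17843328 to 17855188) was at 54.2 and 21.4 exon RPKM in positive libraries, from 7830 and 4014 reads, and at 32.4 and 0.0479 in negative ones, from 2482 and 16 reads. The shallower negative library lay between the positive ones and 676-fold above the deeper negative one, so the groups overlapped. The authors' deposited table gives Has1 a log2 fold of 3.39, a p of 0.0185 and an FDR of 1.00, and a ratio of arithmetic means of 1.16. Without the deeper negative library the log2 fold was 0.07, and without the shallower negative library it was 6.79. The limma difference on RPM + 1 had an SE larger than that of any other enzyme described, 3.53 ± 2.35. Has2, the main hyaluronan synthase of limb development, was lower than Has1 in 3 libraries, between 0.794 and 4.98 exon RPKM in positive libraries and at 0.820 and 0.587 in negative ones. Its log2 fold was 1.03, with a p of 0.471 in the authors' deposited table, and the groups were not separate under every assignment.

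**Figure D3:**
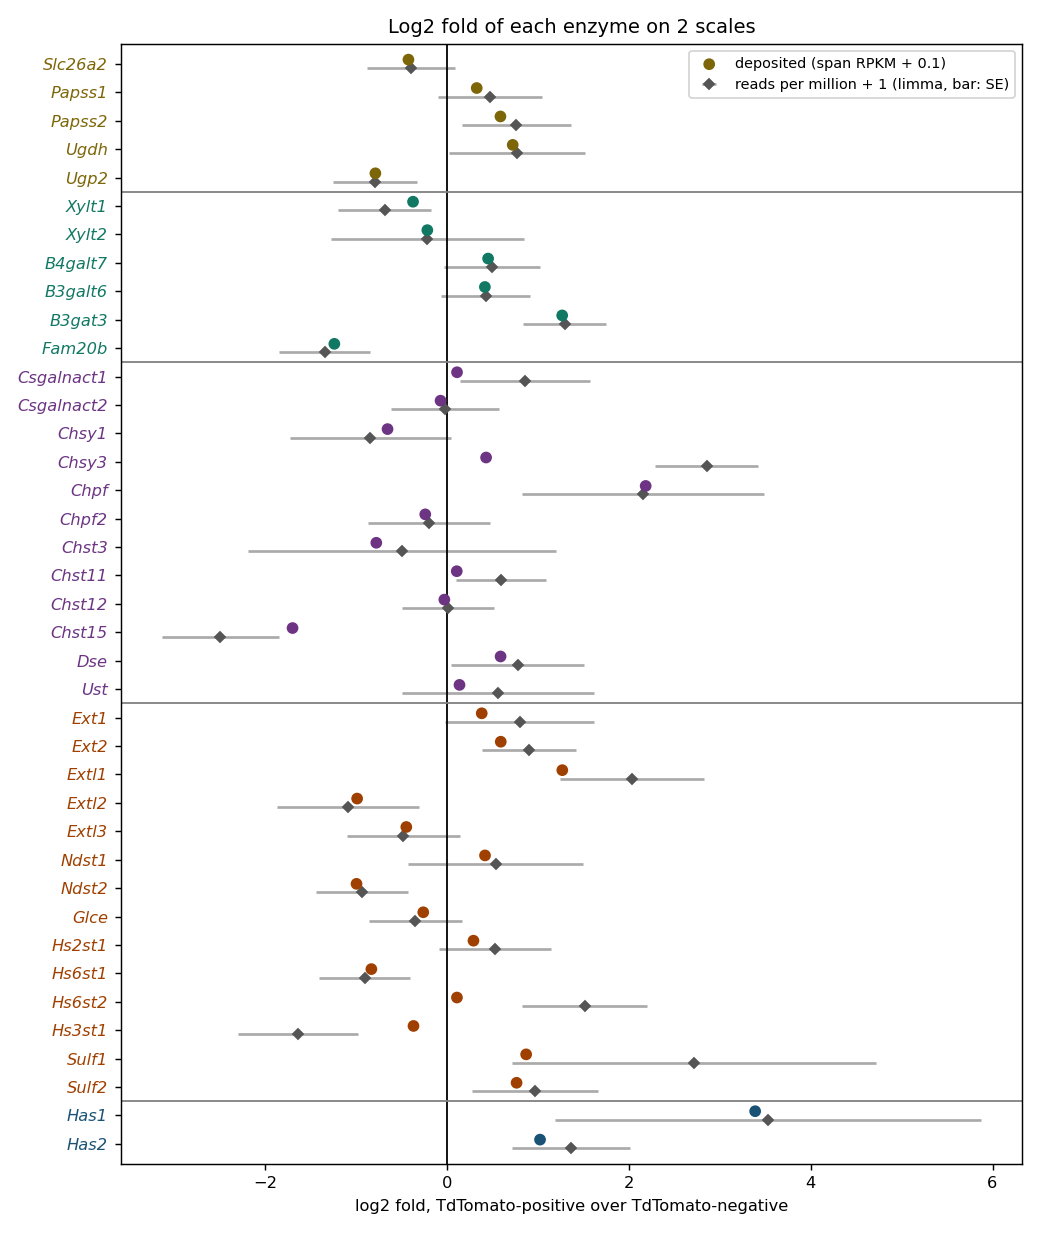
Log2 fold, TdTomato-positive over TdTomato-negative, of each enzyme as deposited (coloured points) and as the limma difference on RPM + 1 (grey diamonds, bars 1 SE). Has1, Sulf1 and Chst3 have long bars, and B3gat3, Fam20b, Chsy3 and Chst15 are the 4 whose unadjusted limma p was below 0.05.

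The size of the deposited fold depends on the length of the gene as well as on its reads. The offset of 0.1 is added to reads per kilobase of genomic span, introns included, so the same read count weighs less against it in a long gene. Of the 18 enzymes whose gene spans at least 50 kb, 0 had a deposited log2 fold above 1, where 3.76% of the 3968 tested genes of that span did, and 1, Chst15, was below -1 (background 8.34%). On log2(RPM + 1), 3 of these 18 were above 1 (background 18.5%) and 2 below -1 (background 16.7%). The 3 were Chsy3, Sulf1 and Hs6st2, and the 2 were Chst15 and Hs3st1. Of the 21 shorter genes, 5 were above 1 on the deposited scale (background 16.5%) and 1 was below -1 (background 13.3%), while on RPM + 1 the same counts were 5 (background 15.3%) and 2 (background 12.1%). On RPM + 1 the 39 divided into 23 higher (background 53.8%) and 16 lower, with a median of 0.50 beside 0.08 over all genes tested. Limma on that scale gave 2 enzymes higher (background 3.14%) and 2 lower (background 3.29%) at an unadjusted p below 0.05, and 0 of 17173 genes at an adjusted p below 0.05. Over the assigned genes alone, which leave out Chst15, Chsy3 was the only enzyme with an unadjusted p below 0.05.

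**Figure D4:**
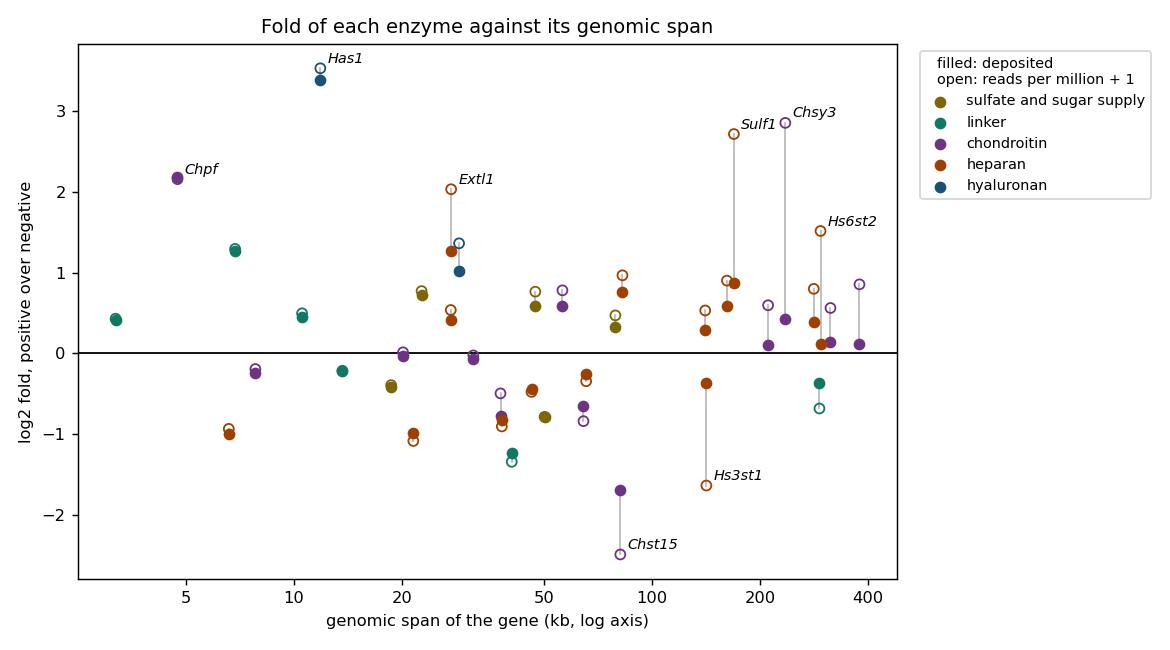
Log2 fold of each enzyme against the genomic span of its gene in kb (log axis), as deposited (filled) and on RPM + 1 (open), joined by a line. The lines are long for Chsy3, Sulf1, Hs6st2, Hs3st1 and Chst15, all with spans of at least 50 kb, and short for compact genes such as Has1 and Chpf.

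Other genes of the pathway were taken as 4 lists. Of 17 further synthesis enzymes, mostly tissue-restricted forms, 8 were tested, 3 with folds above 0 and 5 below, with a median of -0.05. Chst14, the dermatan 4-sulfotransferase, was at 13.7, 7.31, 5.05 and 0.634 exon RPKM (log2 fold 2.34). Dsel, the second epimerase, was at 2.87, 1.75, 2.32 and 0.253 exon RPKM (log2 fold 1.29), and its groups overlapped. The lowest by p were Chst13, a chondroitin 4-sulfotransferase, at 0.757, 1.86, 5.56 and 3.96 exon RPKM (log2 fold -1.38), and Pxylp1, the phosphatase that reverses Fam20b, at -1.07. Chst13 and Pxylp1 were higher in both negative libraries than in both positive ones, as Fam20b was.

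Of 15 genes of precursor synthesis and Golgi transport 14 were tested, 11 above 0 and 3 below, with a median of 0.27. Gfpt2, which makes the precursor of the amino sugars, was at 47.6, 10.1, 28.2 and 0.198 exon RPKM (log2 fold 2.06), and it was far lower in the deeper negative library than in the other libraries, as Has1 was. Slc35b2, the Golgi transporter of the sulfate donor, had a fold of 0.93 and was higher in each positive library than in either negative one. The lowest were Gfpt1 at -0.60 and Slc35b4 at -0.28. Of 19 degradation enzymes 17 were tested, 8 above and 9 below 0, with a median of -0.03. Hyal2, a hyaluronidase, had a log2 fold of 1.74 and Naglu, a lysosomal heparan exoglycosidase, one of 0.96, and neither gene's groups overlapped. Hpse, the heparanase, was at 0.329, 4.23, 2.68 and 10.1 exon RPKM (log2 fold -1.26), and Galns, a lysosomal sulfatase, had a log2 fold of -1.11.

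The list of core proteins had the highest median of the 4 lists, 1.28, with 23 of 28 tested above 0 and 5 below. It also holds hyaluronan-binding genes such as Hapln1, Hapln3 and Lyve1, so not every gene in it carries a chain made by these enzymes. At an unadjusted p below 0.05, 8 genes of this list were higher (background 1.58%) and 0 lower (background 0.606%), and 0 passed the FDR. Col9a2, a cartilage collagen chain, lay between 32.5 and 58.0 exon RPKM in positive libraries and at 0.0571 and 0.0917 in negative ones (log2 fold 6.18, FDR 0.0981 in the authors' deposited table). Fmod, fibromodulin, was next by p with a log2 fold of 4.93, and was at 171 exon RPKM in the shallower and 0.262 in the deeper negative library. The lowest were Srgn, the proteoglycan of blood cell granules, at -1.36 and Gpc2 at -1.34. For 20 of the 28 the deeper negative library was the lowest of the 4, under the same assignment. The enzymes, with a median of 0.11, and this list were not compared by a test.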

How the data were processed

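RNA-seq of 4 libraries, 2 per group, was analysed from 1 table of the authors' own comparison, with 47643 genes. The submitters' processing notes name STAR, Partek and the mm10 build, with no versions. Per the file headers, the deposited values include a normalized signal averaged by group and its highest value. A total of the signal, a signed fold and an Akaike criterion, all used here as scores, stand beside them in the deposited table. Per the file headers the table also gives the groups' difference on a natural log scale, the ratio of their means, and the p-value and FDR from a shrunken lognormal model. The natural log difference was converted to log2. The deposited group means, each times the genomic span, have the deposited ratio.

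No column holds a single library. The 4 library values of each gene were solved from its group means, highest value and log difference, with exactly 1 solution for each of the 47643 genes. They matched RPKM by genomic span plus 0.1, divided by depth and span again. Scale, offset and depths are inferences from the values; no header gives them. The Akaike criterion, which the solution did not use, ran from -88.7 to 73.3, and from 24.5 to 25.8 once 2 times the sum of the logged library values was taken off. Of the 17173 genes with 10 reads in 2 libraries, 11250 (65.5%) could be assigned to libraries. This was by whole reads within 0.01 or because the other assignment gave negative reads. Some rest on 1 whole count of the 2 in a group, within 0.002, where the other assignment had none near whole. That rule fixed the positive values of Fam20b and Sulf2 and the negative values of B4galt7, Chst3 and Chst15. Elsewhere the assignment with the closer libraries entered fits, which narrows the spread. That put 64.9% to 86.1% of each library's depth in genes. The other assignment for every unresolved gene would put 213% of the depth in genes in the deeper negative library and 105% in the deeper positive one. On simulated data 99.98% of genes with whole reads were resolved, and 100% of these correctly, against 10.1% and 98.2% for genes with fractional reads. The simulation did not mix whole and fractional counts above 0 within a gene. These shares therefore do not measure how well the rule on 1 whole count works. Exon lengths came from GENCODE M21 (GRCm38). The strand setting of the counting is not given here, and 9 enzymes share exon bases with a gene on the other strand (B4galt7, Chpf2, Chst15, Chsy1, Fam20b, Has2, Hs6st1, Sulf2 and Ugp2).

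The deposited p-values and FDR are the main test, at 0.05. The planned fold was the deposited ratio. The deposited mean log difference, which the p-value tests, was used in its place, and the ratio became an alternative chosen after seeing the data. Limma 3.58.1 (R 4.3.3) was run on log2(span RPKM + 1) as planned and on log2(RPM + 1), RPM being reads scaled to depth, added after seeing the data, with Benjamini-Hochberg adjustment over all genes tested. An exact permutation test of 2 against 2 libraries cannot go below p = 0.333 (two-sided). Named with each library's value were, per role, the 3 enzymes with the smallest p in each direction and all whose groups did not overlap. Per further list, the 2 genes with the smallest p in each direction were named, many of them by fold only. A few other enzymes are given with their values as well. The members and lists were chosen with earlier results of these data known.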

Additional observations from a re-analysis of the deposited data

How the results depend on the processing

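The count of 0 enzymes past the FDR of 0.05 held under each limma fit run on all libraries. Limma gave 4 enzymes at an unadjusted p below 0.05 on span RPKM + 1, and 4 on RPM + 1, but not the same ones. On span RPKM + 1 they were B3gat3, higher (6.60% of all genes tested), and Fam20b, Ndst2 and Ugp2, lower (2.99%). On RPM + 1 they were B3gat3 and Chsy3, higher (3.14%), and Chst15 and Fam20b, lower (3.29%). Has1, the 1 enzyme by the deposited p, was in neither set. The unadjusted limma count was 1, B3gat3, on span RPKM + 1 over the 13 enzymes with at least 1 span RPKM in 2 libraries. Of the 6860 genes in that fit, 7.36% were higher and 4.01% lower. It was also 1, Chsy3, on RPM + 1 over the 30 enzymes whose values could be assigned to libraries. Of the 11250 genes in that fit, 2.62% were higher and 2.48% lower. With any 1 library left out, a lone library is assumed to vary like the other group, so no count is given for those limma fits. The labels number the collections, but the values carry no collection number, so which libraries pair is not known. Limma with a replicate block on resolved genes gave 7 enzymes at an unadjusted p below 0.05 with the shallower libraries paired with each other, 6 higher (9.71% of the 11250 genes fitted) and 1 lower (6.63%). With the other pairing it gave 1 enzyme, Chsy3, higher (0.942%) and 0 lower (1.01%), and 0 adjusted with either. The median log2 fold of the 39, 0.11, was 0.48 with a pseudocount of 0.01, 0.42 over the 13 enzymes with at least 1 span RPKM in 2 libraries, 0.50 on RPM + 1 and -0.21 as the deposited ratio, and 0.02 to 0.33 with any 1 library left out. The sign of the fold changed for 9 enzymes on the deposited ratio, for 1 to 2 under the other pseudocounts and scalings, and for 4 to 7 when 1 library was left out, most often the deeper negative one. The count of 8 enzymes with both positive libraries higher was 3 over those 13 enzymes, and 10, 18, 19 and 12 without the shallower positive, deeper positive, shallower negative and deeper negative library, a weaker requirement that 24.6% to 33.1% of all genes then met. The count of 7 with both negative libraries higher was 2 over those 13 enzymes, and 7 to 12 with a library left out, which 18.2% to 36.4% of all genes then met. Other causes of these changes were not tested. Low read counts limit Chsy3, Extl1 and Hs6st2, which had 1 to 42 reads in the negative libraries. They also limit Hs3st1, with 7 reads in the deeper positive library, and Chst3, with 13 in the shallower negative one.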

Other observations

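Where a step has more than 1 gene, the share of the pair's summed exon RPKM shows which form was read most in each library. Papss2 made up 44.3%, 28.8%, 17.4% and 49.4% of Papss1 and Papss2 together, in the order shallower positive, deeper positive, shallower negative, deeper negative, so Papss1 was the larger in all 4 libraries. Xylt2 held 61.7%, 20.2%, 41.7% and 26.9% of the xylosyltransferase pair, and the larger form changed between the positive libraries. Chsy3 held 10.1% and 52.7% of the pair with Chsy1 in positive libraries, and 1.98% and 0.290% in negative ones, and both positive shares were above both negative ones. Ndst2 held 34.7% and 60.5% of the pair with Ndst1 in positive libraries and 87.5% and 51.0% in negative ones, and these overlap. Sulf2 held 69.0%, 60.8% and 51.7% of the endosulfatase pair in the libraries that had reads of Sulf1. Ext2 held 48.3%, 68.8%, 50.7% and 63.6% of the pair with Ext1, higher in the deeper library of either group. These pairs were chosen after the values had been seen, and no test was run on them.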
